A study of Mus musculus with 10 samples.

Results

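The 10 hypoxia response genes examined were *Vegfa*, *Slc2a1*, *Car9*, *Bnip3*, *Adm*, *Egln3*, *Ndrg1*, *Pdk1*, *Ankrd37* and *P4ha1*, all direct targets of the hypoxia-inducible factors (HIFs). They were picked by symbol, and all 10 were among the 37417 genes of the count table and among the 15299 genes that passed the filter on low counts. Expression was measured by bulk RNA-seq in 10 subcutaneous tumors of Panc02 cells, a mouse pancreatic cancer line, grown in C57BL/6J mice that were 12 weeks old and taken at day 16 after injection. The injected cells of 5 tumors (sgCda) had been given a guide that cuts *Cda*, which encodes the pyrimidine salvage enzyme cytidine deaminase, and those of the other 5 (sgNT) a guide with no target. Both groups had received inducible Cas9 by lentivirus, the hosts were labelled wild type in both and keep their own *Cda*, a single guide stood for the targeting, and the labels name no drug treatment. A count therefore averages edited cancer cells with unedited host cells, and fewer cells of a type cannot be told apart from less RNA per cell.

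When oxygen is plentiful, prolyl hydroxylases mark the HIF alpha subunits for destruction through the von Hippel-Lindau ligase. When oxygen is short, the alpha subunits persist, pair with ARNT and bind short DNA elements with the core ACGTG or GCGTG. The targets then raise glucose uptake, hold back mitochondrial oxidation, buffer acid, recruit vessels and remodel collagen, and in solid tumors they mark poorly perfused regions. Whether these programs differed between tumors with and without *Cda* targeting was the question of the comparison.

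Libraries held 28051907 to 39484964 assigned counts, and the members took 0.0733% to 0.120% of them. The targeted gene *Cda* measured 10.1, 11.7, 12.8, 14.7 and 11.1 CPM (counts relative to the scaled library size, edgeR's CPM) in sgNT replicates 1 to 5 and 8.34, 8.43, 12.1, 7.47 and 12.5 CPM in sgCda replicates 1 to 5. The groups overlapped, with a log2 fold change of -0.30 (SE 0.17; edgeR adjusted p = 0.9996), so transcript counts of the whole tumor do not by themselves separate the labels. All 8 epithelial markers had counts, with a summed level of 685 to 1154 CPM. Libraries that stood apart were sgCda replicate 3, with 2250 CPM of skeletal muscle markers against 1.74 to 557 in the other tumors, and sgCda replicate 4, with 5.82% of counts from mitochondrial genes against 3.47% to 3.81%. The latter also had the fewest assigned counts, 28051907. In it 18.4% of counted reads lay in no annotated gene, against 10.3% to 14.9% in the other tumors. Adipocyte markers summed to 703 CPM in sgCda replicate 2 against 26.8 to 182 in the other tumors, and keratinocyte markers to 25.4 CPM in sgNT replicate 4 against 3.50 to 5.67. All values below are in replicate order 1 to 5.

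The stretches before the start sites show the letters that HIF is known to recognise. Those of 5 members are given, without exonic bases (13 left out for *Bnip3*): *Bnip3* and *Pdk1*, *Vegfa* and *Egln3*, which stood on opposite sides of the split between tumors described further on, and *P4ha1*, which followed both. These 5 were chosen with that split known, and other members, such as *Adm*, also had a stretch free of exonic bases. The stretches are from RefSeq on GRCm38.p6, written 5′ to 3′ on the strand of the gene. Capitals mark ACGTG or GCGTG, which read CACGT or CACGC when they lie on the other strand.
Bnip3 (chr7:138909520-138909756, minus strand): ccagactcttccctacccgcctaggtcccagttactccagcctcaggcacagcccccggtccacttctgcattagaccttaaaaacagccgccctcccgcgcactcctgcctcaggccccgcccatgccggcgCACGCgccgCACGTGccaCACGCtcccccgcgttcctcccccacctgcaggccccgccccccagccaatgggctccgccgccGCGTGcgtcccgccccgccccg
Pdk1 (chr2:71872974-71873223, plus strand): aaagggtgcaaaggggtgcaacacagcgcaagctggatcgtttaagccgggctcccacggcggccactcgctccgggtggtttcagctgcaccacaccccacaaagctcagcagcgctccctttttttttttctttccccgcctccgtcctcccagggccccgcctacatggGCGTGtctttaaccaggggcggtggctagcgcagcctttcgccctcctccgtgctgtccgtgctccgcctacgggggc
P4ha1 (chr10:59323046-59323295, plus strand): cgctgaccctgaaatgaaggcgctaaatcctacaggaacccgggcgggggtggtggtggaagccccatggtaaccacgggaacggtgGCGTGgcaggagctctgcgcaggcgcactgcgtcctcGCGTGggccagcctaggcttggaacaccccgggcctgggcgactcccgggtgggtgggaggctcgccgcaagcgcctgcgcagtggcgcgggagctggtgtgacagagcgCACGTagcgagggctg
Vegfa (chr17:46032378-46032627, minus strand): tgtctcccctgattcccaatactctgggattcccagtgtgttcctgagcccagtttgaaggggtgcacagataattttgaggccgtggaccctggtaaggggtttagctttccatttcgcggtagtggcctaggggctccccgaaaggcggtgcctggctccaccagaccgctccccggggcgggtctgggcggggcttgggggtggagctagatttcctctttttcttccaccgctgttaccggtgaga
Egln3 (chr12:54203875-54204124, minus strand): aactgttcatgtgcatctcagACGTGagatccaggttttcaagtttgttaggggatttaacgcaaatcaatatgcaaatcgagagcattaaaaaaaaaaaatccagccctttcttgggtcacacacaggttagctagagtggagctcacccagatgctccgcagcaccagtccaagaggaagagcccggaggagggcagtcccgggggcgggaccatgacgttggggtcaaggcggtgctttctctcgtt
*Bnip3* held 5 matches on either strand, at 117, 108, 107, 99 and 35 bases before the start, and its middle pair overlap as CACGTG, which is also the E-box core. *P4ha1* held 3 matches, *Pdk1* held 1 GCGTG and *Egln3* 1 ACGTG, while this window of *Vegfa* held neither. Over the 9 members with an entry (all but *Ndrg1*), taking the first window listed for each gene, ACGTG was in the 250 bases before the start of 6, GCGTG of 6 and either of 8. Unlike the printed stretches, these windows kept annotated exonic bases, and the only match of *Car9* lay in its 60 exonic bases. A second window of *Vegfa*, inside the gene, held 1 of each and was not counted. Among all 27025 genes of the RefSeq table, with windows taken in the same way, the shares were 16.6% for ACGTG, 28.2% for GCGTG and 38.6% for either. These are matches of letters only, and binding was not measured.

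No member passed the test between sgCda and sgNT tumors. At an adjusted p under 0.05, 0 members and 0 of all genes passed edgeR's quasi-likelihood test (0.00% of genes tested), and at an unadjusted p under 0.05, 0 members passed against 382 genes, or 2.50% of those tested (1.54% with a rise and 0.954% with a fall in sgCda). The groups overlapped for all 10 members, while 0.601% of all genes had groups that did not overlap. Mean levels were higher in sgCda tumors for 7 members and lower for 3, and 52.9% of all genes had a fold change above 0. The median log2 fold change of the members was 0.062, beside 0.0078 over all genes, and every adjusted p was 0.9996. Single tumors set the direction, since all 10 members were higher in sgCda without sgNT replicate 3 or without sgCda replicate 1, while 1 was higher and 9 were lower without sgCda replicate 5.

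Among the members that act on the surroundings of the cell, *Vegfa* (ENSMUSG00000023951, chr17:46016993-46032369), the growth factor that drives vessel sprouting, measured 86.0, 104.3, 116.5, 123.1 and 74.1 CPM in sgNT tumors. In sgCda tumors it measured 87.8, 67.9, 84.6, 156.1 and 143.3 CPM. The highest and the lowest level were thus both in sgCda tumors, in replicates 4 and 2. The log2 fold change was 0.098 (SE 0.23, 95% interval -0.41 to 0.61).

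*Adm* (ENSMUSG00000030790, chr7:110627661-110629820), which encodes the vasodilator peptide adrenomedullin, was at 3.74, 3.89, 7.94, 6.82 and 2.84 CPM in sgNT tumors and at 3.62, 4.73, 3.89, 4.85 and 7.18 CPM in sgCda tumors. Levels over 6 CPM occurred in sgNT replicates 3 and 4 and sgCda replicate 5. It was the member with the widest range, 2.79-fold from the lowest to the highest tumor, and its log2 fold change was -0.055 (SE 0.30).

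*P4ha1* (ENSMUSG00000019916, chr10:59323296-59373304), a subunit of the prolyl hydroxylase that matures collagen, was the steadiest member, with a 1.42-fold range. Its levels were 103.9, 120.6, 147.9, 144.0 and 105.2 CPM in sgNT tumors and 114.0, 106.5, 128.1, 140.3 and 135.6 CPM in sgCda tumors. The means were nearly equal, and the log2 fold change of 0.0063 (SE 0.12) had an interval from -0.26 to 0.27. In percent, that is a change between -16.2% and 20.4%, the narrowest of the members.

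Of the members that handle fuel and acid, *Slc2a1* (ENSMUSG00000028645, chr4:119108711-119137983), the glucose transporter GLUT1, was at 65.6, 59.4, 97.9, 101.0 and 52.8 CPM in sgNT tumors. The sgCda tumors had 59.9, 57.5, 93.7, 65.9 and 89.0 CPM. High and low tumors did not follow the guide, since sgNT replicates 3 and 4 and sgCda replicates 3 and 5 were high, and the remaining 6 tumors were low. Its log2 fold change was -0.041 (SE 0.21).

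*Pdk1* (ENSMUSG00000006494, chr2:71873224-71903858), the kinase that shuts pyruvate out of the mitochondrial cycle, was at 98.8, 110.1, 134.4, 124.8 and 94.9 CPM in sgNT tumors and at 112.4, 94.0, 135.8, 92.8 and 145.3 CPM in sgCda tumors. Its 4 highest tumors were those of *Slc2a1*. *Pdk1* had a log2 fold change of 0.044 (SE 0.15).

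*Car9* (ENSMUSG00000028463, chr4:43506966-43513729), the membrane carbonic anhydrase that buffers the acid of glycolytic cells, was at 5.83, 6.06, 11.2, 8.48 and 4.93 CPM in sgNT tumors. In sgCda tumors it was at 5.16, 4.22, 9.37, 5.95 and 10.2 CPM. The same 4 tumors were again the highest. The log2 fold change was -0.066 (SE 0.29), and the interval, from -38.7% to 49.0%, is wide.

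*Bnip3* (ENSMUSG00000078566, chr7:138890836-138909519), which directs mitochondria to autophagy, was at 69.0, 74.1, 131.5, 119.2 and 60.8 CPM in sgNT tumors and at 81.8, 72.9, 136.6, 77.6 and 137.6 CPM in sgCda tumors. These 4 tumors were the highest for *Bnip3* as well. Its log2 fold change, 0.16 (SE 0.26), was the largest among the members and smaller than its error.

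*Egln3* (ENSMUSG00000035105, chr12:54178981-54203860), the HIF-induced prolyl hydroxylase PHD3 that feeds back on HIF, was at 123.2, 170.4, 160.2, 178.3 and 130.0 CPM in sgNT tumors. In sgCda tumors it was at 140.8, 126.4, 122.1, 204.4 and 234.1 CPM. Here sgCda replicate 3, high for the preceding 4 genes, was the lowest of all tumors, and sgCda replicate 4 was the second highest. The log2 fold change was 0.12 (SE 0.19), with the smallest unadjusted p of the members (0.547, edgeR).

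*Ndrg1* (ENSMUSG00000005125, chr15:66929318-66969640), a stress-induced gene that serves as a marker of hypoxia in tumors, was at 213.7, 202.2, 255.8, 203.9 and 196.2 CPM in sgNT tumors and at 203.9, 200.1, 177.3, 256.5 and 295.5 CPM in sgCda tumors. It was also lowest in sgCda replicate 3 and highest in sgCda replicate 5. The log2 fold change was 0.080 (SE 0.14).

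*Ankrd37* (ENSMUSG00000050914, chr8:45996902-46005707), an ankyrin repeat gene used in hypoxia signatures, was at 5.53, 6.32, 10.6, 11.4 and 5.33 CPM in sgNT tumors and at 5.57, 8.02, 7.33, 9.95 and 11.8 CPM in sgCda tumors. Levels of 9 CPM or more were in sgNT replicates 3 and 4 and sgCda replicates 4 and 5. The log2 fold change was 0.12 (SE 0.27). Exons of *Ndrg1*, *Car9*, *Slc2a1*, *Ankrd37* and *Bnip3* overlap exons annotated on the opposite strand, and the strand setting of the counting was not given, so reads of those neighbours may be included or the shared bases lost.

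**Figure D1:**
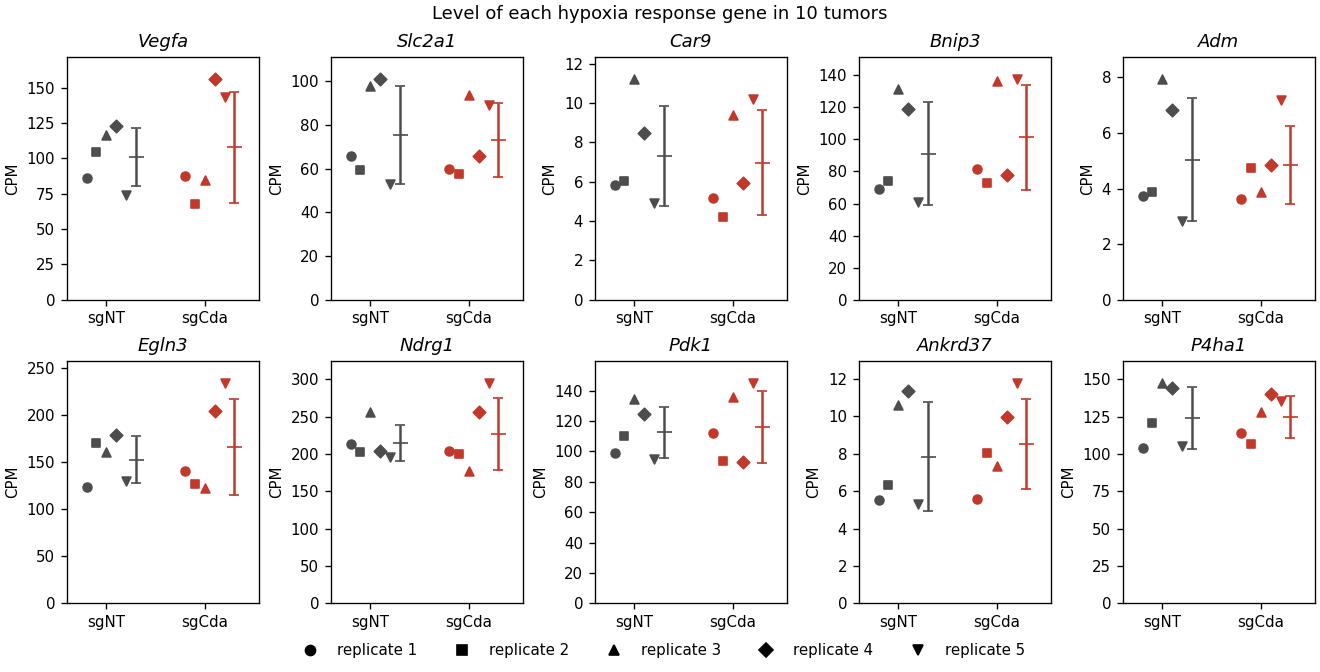
Level of each hypoxia response gene in CPM (vertical axes, from 0) in the 5 sgNT and 5 sgCda tumors, with 1 marker shape per replicate number and the mean ± SD of each group beside the points. The groups overlap for all 10 genes, and sgCda replicate 5 and sgNT replicate 3 are near the top of most panels.

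**Figure D2:**
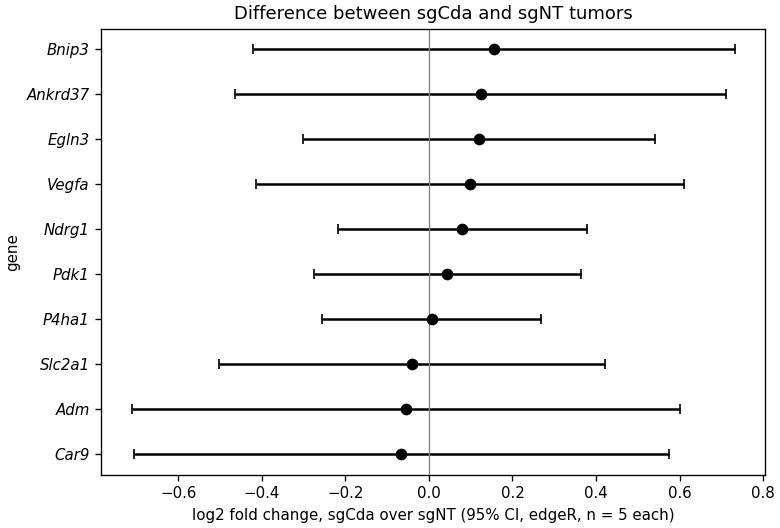
Log2 fold change of sgCda over sgNT tumors for the 10 genes (points) with the 95% confidence interval of edgeR's test (bars, n = 5 tumors per group). Every interval includes 0, from the narrow one of *P4ha1* (-0.26 to 0.27) to the wide one of *Adm* (-0.71 to 0.60).

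Per kilobase of annotated exon, mean levels over the 10 tumors fell from *Egln3* (59.7 ± 14.3 CPM per kilobase, SD, n = 10 tumors) through *Bnip3* (42.4 ± 13.7), *Ndrg1* (33.4 ± 5.53), *P4ha1* (30.3 ± 4.10), *Vegfa* (24.4 ± 6.93), *Slc2a1* (21.2 ± 5.36) and *Pdk1* (14.7 ± 2.52) to *Ankrd37* (5.32 ± 1.66), *Car9* (3.10 ± 1.07) and *Adm* (3.06 ± 1.08). Neighbours in this order overlapped within 1 SD of their means, except *Pdk1* and *Ankrd37*. *Egln3* was above *Bnip3* in 9 of 10 tumors, and *Car9* above *Adm* in 5 of 10. *Slc2a1* was above *Pdk1*, *Pdk1* above *Ankrd37* and *Ankrd37* above *Car9* in all 10 tumors. The remaining neighbours kept their order in 6 to 8 of 10 tumors. The lengths join all annotated exons of a gene, so a gene with long, rarely used exons reads low.

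The members varied more from tumor to tumor than between the groups. The SD of log2 CPM over the 10 tumors ran from 0.20 (*P4ha1*) to 0.48 (*Adm*), with a median of 0.38 beside 0.20 over all genes tested and 0.16 over the 11128 genes at least as abundant as *Adm*. The difference between groups made up 0.0119% (*Adm*) to 3.65% (*Bnip3*) of this sum of squares. Its median was 0.650% for the members and 4.38% for all genes.

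The mean log2 CPM of the 10 members in a tumor was 5.36, 5.49, 6.00, 5.92 and 5.21 in sgNT tumors and 5.39, 5.34, 5.66, 5.72 and 6.09 in sgCda tumors. The highest tumors, sgCda replicate 5 and sgNT replicate 3, and the lowest, sgNT replicate 5 and sgCda replicate 2, came from both groups. The lowest include the tumor with the highest adipocyte marker sum, sgCda replicate 2, and the third highest, sgNT replicate 4, is the one with the highest keratinocyte marker sum, and the part of these tissues was not tested. Of the 10 members, 8 had sgCda replicate 5 among their 3 highest tumors, and 8 had sgNT replicate 3. In the other direction, sgNT replicate 5 was among the 3 lowest tumors for 9 members and sgCda replicate 2 for 8.

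**Figure D3:**
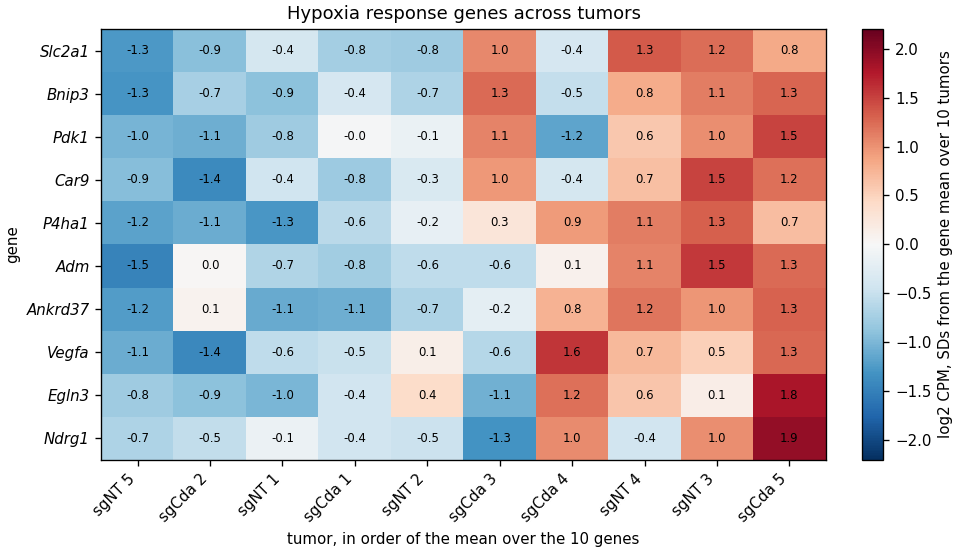
Log2 CPM of each gene (rows) in each tumor (columns), in SDs from that gene's mean over the 10 tumors, with tumors placed in order of their mean over the 10 genes. Low tumors on the left and high tumors on the right include both groups, and sgCda replicates 3 and 4 are high for some genes and low for others.

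Across the 10 tumors the levels of the members moved together. All 45 pairs had a Pearson r of log2 CPM above 0, with a median of 0.713 (median Spearman rho 0.661) and a range from 0.280 to 0.945. An r of 0.5 or more was found in 35 pairs (77.8%), beside 15.88% of the 117022051 pairs of all genes tested, whose median r was -0.0007. With each group centred on its own mean, the median of the members was 0.703, so the pattern did not rest on a difference between sgNT and sgCda. With only 5 tumors, no correlation was computed within a group.

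Two-sided permutation tests with 100000 resamples gave an adjusted p under 0.05 for 22 of the 45 pairs by Pearson's r, for 12 by Spearman's rho and for 12 by both, after adjustment over these 45 pairs of genes, whose choice is given with the methods. The count was 14, 14, 11, 7, 10 and 12 in exact permutation tests without sgNT replicates 1, 2, 3 and 5 and without sgCda replicates 1 and 5 respectively. In each pair, r was also computed without the 2 tumors farthest from the median of the first gene. The median over pairs was then 0.617, with 44 of 45 above 0 and a lowest value of -0.27.

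The pairs and sets named here were chosen after their values were seen. *Slc2a1* and *Bnip3* had the highest r, 0.945 (rho 0.782; adjusted permutation p = 0.00829 and 0.0397), and 0.953 without the farthest 2 tumors. *Bnip3* and *Pdk1* had an r of 0.937 (rho 0.842; adjusted permutation p = 0.00495 and 0.0295), and 0.892 without them. *Vegfa* and *Egln3* had an r of 0.922 (rho 0.879; adjusted permutation p = 0.00495 and 0.0295), and 0.867 without them. The strongest rank correlation joined *Adm* and *Ankrd37*, with a rho of 0.952 and an r of 0.929 (adjusted permutation p = 0.0036 for each), and an r of 0.921 without the farthest 2 tumors.

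Some of the 10 genes formed 2 sets, called the 2 ends below. *Slc2a1*, *Bnip3*, *Pdk1* and *Car9*, which serve glucose uptake, mitochondria and acid, had an r of 0.84 or more with each other. *Vegfa*, *Egln3* and *Ndrg1* had an r of 0.76 or more with each other. Without the farthest 2 tumors, here sgCda replicates 4 and 5, r was 0.867 for *Vegfa* and *Egln3*. It was 0.4995 for *Vegfa* and *Ndrg1* and 0.413 for *Egln3* and *Ndrg1*. *Vegfa* then had an r of 0.695, 0.742, 0.603 and 0.700 with *Slc2a1*, *Car9*, *Bnip3* and *Pdk1*. This second set therefore rested in part on those 2 tumors. *Adm*, *Ankrd37* and *P4ha1* were placed in neither set, since each had an r of 0.52 or more with every other member. Between these sets r was lower, at most 0.577, for *Vegfa* and *Car9*. That is above the r of 0.520 for *Pdk1* and *Ankrd37*, so the sets were not sharply apart. The lowest r was 0.280 for *Ndrg1* and *Pdk1* (rho 0.127; adjusted permutation p = 0.434 and 0.734; 0.171 without the farthest 2 tumors). For *Slc2a1* and *Ndrg1* r was 0.293 (rho 0.370; adjusted permutation p = 0.418 and 0.333; 0.288 without them), and for *Egln3* and *Pdk1* 0.351 (rho 0.127; adjusted permutation p = 0.338 and 0.734; 0.421 without them). *P4ha1* had the highest median r with the other members, 0.798, and *Ndrg1* the lowest, 0.523.

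The 2 ends parted in sgCda replicates 3 and 4. In sgCda replicate 3, *Slc2a1*, *Bnip3*, *Pdk1* and *Car9* were among the 4 highest tumors of each gene while *Egln3* and *Ndrg1* were at their lowest. *Vegfa* ranked 8 of 10 tumors in it. The lowest *Egln3* level, 122.1 CPM, was close to the 123.2 CPM of sgNT replicate 1. In sgCda replicate 4, *Vegfa* was at its highest, *Egln3* and *Ndrg1* ranked 2 of 10 tumors, and *Pdk1* was at its lowest (92.8 CPM, close to 94.0 in sgCda replicate 2). *Slc2a1* ranked 5 there and *Bnip3* and *Car9* 6, so only *Pdk1* of its set was low in that tumor. Without both tumors, a choice made after their values were seen and which by that choice raises r, the median r was 0.852, the lowest 0.592, and 38 pairs had an adjusted p under 0.05 in exact permutation tests. *Egln3* and *Pdk1* then had an r of 0.884, and *Ndrg1* and *Pdk1* 0.815. These are the tumors with the highest muscle marker sum (sgCda replicate 3) and with the highest shares of mitochondrial counts and of reads in no annotated gene (sgCda replicate 4). The part of any of these in the split was not tested. One tumor also carried much of the weak link between the ends: without sgCda replicate 5, the r of *Ndrg1* and *Pdk1* was -0.125.

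**Figure D4:**
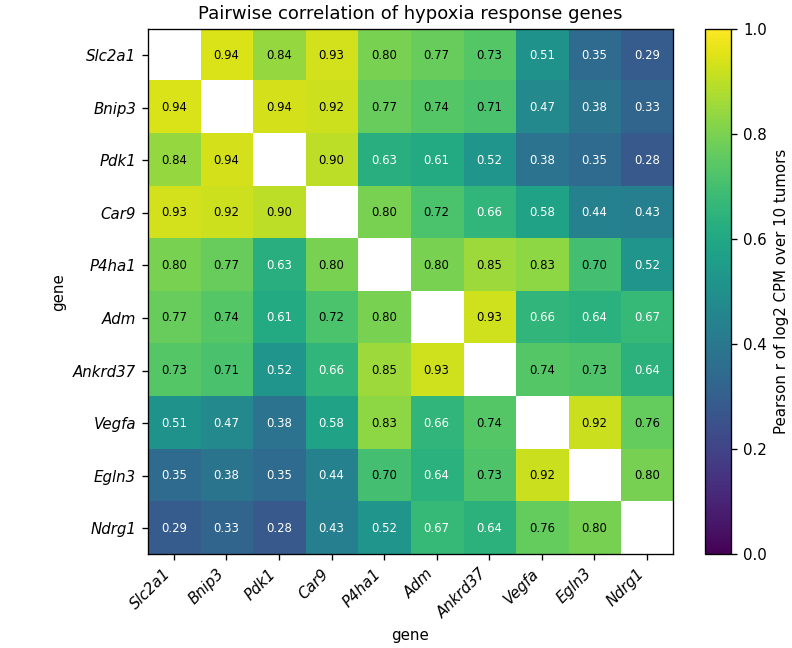
Pearson r of log2 CPM over the 10 tumors for each of the 45 pairs of hypoxia response genes (both axes list the genes, colour and number give r). The block from *Slc2a1* to *Car9* and the block from *Vegfa* to *Ndrg1* have high values, and the lowest value is 0.28 for *Ndrg1* and *Pdk1*.

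Other HIF targets, from a list of 30 genes that leaves out the members, followed the same tumors. Of the list, 29 were in the table and 28 were tested. Likeness was measured as Pearson's r, over the 10 tumors, between a gene and the mean profile of the 10 members, both as deviations from the group means, and is a description without a test. The median r was 0.571, 24 of 28 were above 0 and 16 (57.1%) were at 0.5 or more, beside a median of -0.011 and 8.38% over all other genes tested. Library depth and composition are shared by all genes of a tumor.

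The most alike of these targets was *Mxi1* (r = 0.906), a MYC antagonist, at 38.3, 38.9, 43.9, 44.9 and 37.5 CPM in sgNT tumors and 37.3, 36.7, 38.4, 43.4 and 52.8 CPM in sgCda tumors. *Egln1* (0.842), the main oxygen-sensing prolyl hydroxylase, *Gys1* (0.802), which makes glycogen, *P4ha2* (0.786), of collagen maturation, and *Pgk1* (0.779), a glycolytic enzyme, came next. Targets that did not follow the members were *Pfkfb4* (r = -0.447), *Ndufa4l2* (-0.406), *Lox* (-0.080) and *Car12* (-0.0083).

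In the comparison of the groups, 19 of the 28 other targets were higher in sgCda tumors and 9 lower, with a median log2 fold change of 0.042, and 0 passed at an adjusted p under 0.05. Of all genes tested, 52.9% had a fold change above 0. At an unadjusted p under 0.05, where 2.50% of all genes passed, 1 of the 28 did. This was *Tfrc*, the transferrin receptor that brings iron into cells, at 100.4, 111.9, 102.5, 111.1 and 114.8 CPM in sgNT tumors and 179.3, 104.0, 117.3, 154.0 and 163.1 CPM in sgCda tumors. In 4 of 5 sgCda tumors it was above every sgNT tumor (log2 fold change 0.41, SE 0.14; unadjusted p = 0.0118, adjusted p = 0.9996, edgeR). *Edn1*, the vasoconstrictor endothelin, had a log2 fold change of 0.36 (SE 0.25), *Ndufa4l2* of -0.29 (SE 0.28) and *Angptl4* of -0.12 (SE 0.15).

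Of the 16 genes that regulate HIF, 15 were tested, 7 were higher and 8 lower in sgCda tumors, and 0 passed at either threshold. Of all genes, 0.00% passed at the adjusted and 2.50% at the unadjusted threshold. Their median likeness to the members was -0.013. *Hif1a*, the alpha subunit induced in most cells, had an r of 0.619 and was at 216.5, 209.5, 246.1, 241.2 and 212.1 CPM in sgNT tumors and 221.0, 222.8, 244.4, 203.8 and 235.9 CPM in sgCda tumors. *Epas1*, the alpha subunit HIF-2 alpha that vessels express strongly, had an r of -0.414 and was at 131.5, 146.2, 104.7, 103.0 and 155.6 CPM in sgNT tumors and 155.3, 144.8, 66.3, 158.8 and 127.9 CPM in sgCda tumors. *Hif1a* was highest, and *Epas1* low, in sgNT replicates 3 and 4 and in sgCda replicate 3. Whether these 2 correlations differ was not tested, and exons of *Hif1a* overlap those of annotated neighbours on both strands. By the smallest p in each direction, *Hif1an*, the asparagine hydroxylase FIH, had a log2 fold change of -0.11 (SE 0.067), *Ep300*, a HIF coactivator, of -0.10 (SE 0.073), *Arnt2*, a HIF partner, of 0.26 (SE 0.40) and *Eloc*, part of the VHL ligase, of 0.031 (SE 0.063).

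Among the receptors that read the secreted members, all 8 genes were tested, 3 were higher and 5 lower in sgCda tumors, and 0 passed at an adjusted p under 0.05. At an unadjusted p under 0.05, where 2.50% of all genes passed, 1 of the 8 did. *Nrp2*, a VEGF coreceptor, was at 231.4, 246.9, 244.1, 242.5 and 217.1 CPM in sgNT tumors and 222.0, 199.9, 201.9, 218.8 and 224.7 CPM in sgCda tumors. Its groups overlapped through sgNT replicate 5 (log2 fold change -0.15, SE 0.061; unadjusted p = 0.0332, adjusted p = 0.9996, edgeR). *Kdr*, the main VEGF receptor of endothelium, had a log2 fold change of -0.22 (SE 0.25), *Flt1*, the decoy receptor, of 0.095 (SE 0.14), and *Ramp3*, a subunit of adrenomedullin receptors, of 0.20 (SE 0.20). In likeness to the members, *Ramp3* (0.679) and *Nrp2* (0.646) were high, and *Ramp2* (-0.427) and *Nrp1* (-0.423) were lowest.

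**Figure D5:**
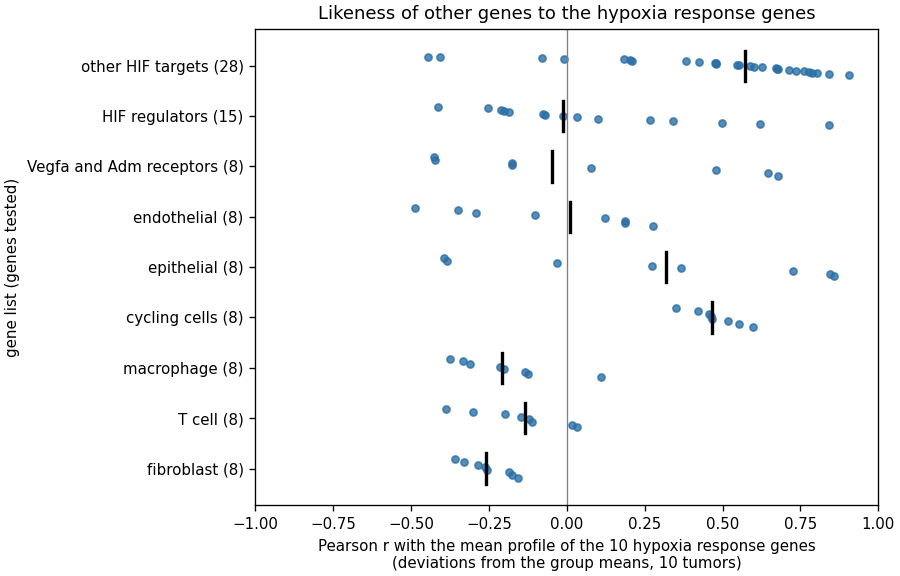
Pearson r of single genes (points) with the mean profile of the 10 hypoxia response genes over 10 tumors, as deviations from the group means, for 3 lists of pathway genes and 6 lists of cell markers (rows, with the number of genes tested), with list medians as black bars. Other HIF targets have a median of 0.571, and fibroblast markers lie below 0.

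Markers of cells in the tumor moved with the members to different degrees. All 8 markers of cycling cells had an r above 0, with a median of 0.464 and summed levels of 1565 to 1982 CPM in sgNT tumors and 1239 to 1932 CPM in sgCda tumors. Of 8 epithelial markers, 5 were above 0 (median 0.320), led by *Krt18* (0.858), *Krt19* (0.845) and *Krt8* (0.725), while *Epcam* (-0.385) and *Pdx1* (-0.396) were below, and their sum ran from 702 to 1042 CPM in sgNT and from 685 to 1154 CPM in sgCda tumors. All 8 fibroblast markers were below 0 (median -0.259, sums 3298 to 7280 and 4006 to 6012 CPM), as were 7 of 8 macrophage markers (median -0.208, sums 4983 to 7646 and 4739 to 8169 CPM) and 6 of 8 T cell markers (median -0.134, sums 280 to 442 and 202 to 649 CPM). The 6 adipocyte markers were also below 0 (median -0.110). Endothelial markers had a median of 0.010 (sums 96.1 to 143.1 and 82.9 to 131.3 CPM) and muscle markers of 0.024. None of the defining markers of these lists was at 0 in all tumors. The part of the cell mixture in the shared pattern was not tested.

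Over all 13259 other genes with a mean log2 CPM of at least 0, the profiles most like that of the members were *Seh1l* (r = 0.937), of the nuclear pore, *Ggta1* (0.933), of cell surface glycans, *Rabggta* (0.929), of Rab prenylation, *Gpi1* (0.928), the glycolytic phosphoglucose isomerase, *Ppp4r2* (0.915), a phosphatase subunit, and *B3gnt3* (0.908), a glycosyltransferase. *Gpi1* was at a log2 CPM of 8.77, 8.94, 9.20, 9.24 and 8.80 in sgNT tumors and 8.80, 8.76, 9.21, 9.01 and 9.29 in sgCda tumors, high in the tumors where *Slc2a1* was high. *B3gnt3* had a log2 fold change between the groups of -0.26 (SE 0.065; unadjusted p = 0.00181, adjusted p = 0.9996, edgeR). Its unadjusted p was the smallest of all genes tested, and it did not pass after adjustment. The most opposed profiles were *Limk1* (-0.927), a kinase of the actin cytoskeleton, ENSMUSG00000044794 (-0.913), which had no symbol, *Zfp385a* (-0.899) and *Gdf11* (-0.894), a TGF-beta family ligand.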

How the data were processed

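Per the labels and the study's methods, the authors made stranded poly(A) libraries from total tumor RNA, aligned trimmed reads to mm10 with TopHat and Bowtie and counted them per Ensembl gene with HTSeq. The deposited values are raw counts, without normalization. Strand setting and annotation release were not given in the sources used here. Counts were filtered with filterByExpr (minimum count 10, total 15), scaled by trimmed mean of M values (TMM) and tested with edgeR 4.0.16 (glmQLFit, glmQLFTest; R 4.3.3) over all 15299 genes, with Benjamini-Hochberg adjustment. The 5 summary lines were left out, and 32608 genes had a symbol. Log2 CPM used a prior count of 2. A count of 3, taken as the smallest visible level, equals 0.0754 to 0.106 CPM. Intervals cover the spread between these tumors.

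Members and gene lists were chosen with earlier results of these data known. Named genes were the members, *Cda*, listed genes with an adjusted p under 0.05 or otherwise the 2 smallest p in each direction, and the 6 most and 4 least alike profiles, beside genes named after their values were seen. Gene lengths and positions were from GENCODE vM21 (GRCm38), and upstream sequences from RefSeq (GRCm38.p6). The scripts were tested on simulated data. DESeq2 1.42.0 and limma 3.58.1 served as alternatives.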

Additional observations from a re-analysis of the deposited data

Results flagged for a closer look

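Among 48 groups of 5 values examined (members, *Cda*, the named pathway genes and the mean of the members, in each guide group), 2 held a tumor far from the other 4 by Dixon's criterion, which chance alone meets in about 1 of 20 groups. Both were sgCda replicate 4, the tumor with the fewest assigned counts and the highest mitochondrial share. *Ndufa4l2*, a HIF target of the respiratory chain, was at a log2 CPM of -0.027 there, beside 1.03 to 1.36 in the other sgCda tumors. *Hif1an*, the asparagine hydroxylase that restrains HIF, was at 5.94, beside 6.17 to 6.24. No member was far from the rest of its group by this criterion.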

How the results depend on the processing

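Under 19 alternatives, 0 genes and 0 members had an adjusted p under 0.05, and 0 members had an unadjusted p under 0.05 in any of them (smallest 0.235). Genes that had one made up 1.81% (280 genes, without sgNT replicate 2) to 4.86% (747 genes, without sgCda replicate 3) of those tested. Their number was largest, 830 or 3.16%, with a filter of 1 count in any tumor. Of 190 recomputed fold changes of members, 158 kept their sign and 32 turned, with a smallest p of 0.566 among those that turned, and only *Bnip3* never turned. With that filter *P4ha1* was at -0.0134. With limma-voom *Adm* was at 0.020 and *Gdf11* at 0.0014, with library totals *Gdf11* was at 0.0043, and without the 20 most abundant genes at 0.0029. Deviations of same-numbered tumors had correlations of -0.028, -0.024, 0.331, -0.427 and 0.343. Most like their own number were 2 of 5 sgNT and 1 of 5 sgCda tumors. These values cannot decide whether the design paired the tumors, and the main fit used no pairing. With the replicate number as a block, 325 genes (2.12% of those tested) and 0 members had an unadjusted p under 0.05, and *Adm* was at 0.0014 and *Gdf11* at 0.0034.

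Leaving out each tumor in turn gave ranges of the median member fold change from -0.036 to 0.15, of *Vegfa* from -0.071 to 0.23, *Slc2a1* from -0.15 to 0.080, *Car9* from -0.24 to 0.14, *Adm* from -0.24 to 0.17, *Egln3* from -0.039 to 0.21, *Ndrg1* from -0.034 to 0.16, *Pdk1* from -0.049 to 0.12, *Ankrd37* from -0.020 to 0.29 and *P4ha1* from -0.055 to 0.077. Among other named genes *Eloc* ran from -0.0087 to 0.061, *Seh1l* from -0.047 to 0.0058, *Rabggta* from -0.0031 to 0.069, *Gpi1* from -0.048 to 0.088, *Gdf11* from -0.061 to 0.046 and *Zfp385a* from -0.075 to 0.021. The r of *Ndrg1* and *Pdk1* ran from -0.125 to 0.559, the median r of the members from 0.639 to 0.758, and the pairs with an adjusted permutation p under 0.05 from 7 to 25, beside 22 with all tumors and 12 by Spearman's rho. Without sgCda replicates 3 and 4, chosen after seeing the data, the median r was 0.852 and 38 pairs passed, while *Vegfa* was at -0.018, *Adm* at 0.037, *P4ha1* at -0.068, *Rabggta* at -0.020, *Gpi1* at -0.034 and *Gdf11* at 0.016. The cause was not tested. With 5 tumors per group and SEs of 0.12 to 0.30, every member interval includes 0, and true changes anywhere inside an interval remain possible at this depth and spread. The study's methods place Panc02 cells in the right flank of each injected mouse, and the labels do not say that each tumor came from its own mouse. The p-values rest on the spread between these tumors.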
